A study of Mus musculus with 12 samples.

Results

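The interferon-stimulated genes described here are 31 genes of mouse antiviral defence, chosen by name from the 37583 genes of the deposited table, and all 31 had a row. They were followed in blood of wild-type mice after burn/tenotomy, a combined skin burn and tendon cut that is used as a model of heterotopic ossification, the growth of bone in soft tissue. The blood had been enriched on the iChip, a microfluidic sorter, and the labels name 2 constituents, blood cells and cMPCs, where cMPC stands for a circulating progenitor of mesenchymal tissue. Total RNA libraries were made at 3 times after injury, called 6h, Day1 and Day7, with 4 libraries at each, and all 12 came from injured wild-type mice. Uninjured blood was not analysed here, so each value is compared only with the other times after injury. Whether replicates came from separate animals is not stated in the labels, so the p-values measure the spread between these libraries, which may be partly technical.

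As background, interferons are secreted when cells sense foreign or misplaced nucleic acids or when lymphocytes are activated. Type I interferons (alpha and beta) signal through Ifnar1 and Ifnar2 to a complex that contains Stat2 and Irf9 and binds the interferon-stimulated response element (ISRE) of genes such as the Ifit, Oas and Mx families. Interferon gamma signals through Ifngr1 and Ifngr2, acts on genes through the gamma-activated site (GAS) and induces the guanylate-binding proteins (Gbp) and the immunity-related GTPases (Irgm1, Igtp, Iigp1, Ifi47), often together with Irf1. Many of these genes answer to both kinds of interferon, so the families are a rough guide to the ligand and no more.

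The libraries held 5098395 to 12379041 reads, of which 16.1% to 70.3% came from haemoglobin genes, and the 31 members together took 0.111% to 0.795% of the reads. The deposited values are reads divided by an effective library size set by the authors, and this size was 0.178 to 2.84 times the read total. A gene with a constant share of the reads therefore has a much higher deposited value in Day7 replicate 3, at the low end, than in Day1 replicate 2, at the high end. For this reason the main results are also given on the scale of all reads, in RPM (reads relative to the read total of the library). That change of scale moved the median log2 difference of all tested genes from 0.52 to 1.57 for Day1 versus 6h, from −0.48 to −1.78 for Day7 versus Day1, and from 0.13 to −0.19 for Day7 versus 6h. Of the mesenchymal markers, Col1a1 and Dcn had reads in all 12 libraries, whereas Pdgfra and Pdgfrb were each at 0 in 7 libraries and Prrx1 in 6. Reads of Y-linked genes were absent from 7 libraries, among them all 4 of Day7, and present in 3 of the 4 Day1 libraries. In RNA of mixed cells, fewer cells of a type and less RNA per cell cannot be told apart.

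A gene was tested if its deposited value was at least 1 in at least 4 libraries, which left 11211 genes and 29 of the 31 members. Mx2 and Gbp5 did not pass this filter. limma compared the times on log2(value + 1), with p-values adjusted over all tested genes by the Benjamini-Hochberg method and a threshold of 0.05. Differences below are on that log2 scale, which understates changes of low genes.

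The members differed widely in level. Per kilobase of gene length, the highest means of the deposited value over the 12 libraries were 706 for Isg15, a ubiquitin-like protein that is attached to other proteins, and 609 for Rsad2 (viperin), an enzyme that makes a nucleotide which stops viral RNA synthesis. Irf7, the factor that amplifies type I interferon production, followed at 108 per kilobase, Igtp at 94.3 and Bst2 (tetherin), which holds budding virus at the cell surface, at 72.3. Ifit1 was next at 19.6, and the lowest were Mx1 at 0.310, Ifih1 at 0.300 and Gbp5 at 0.161. Rsad2 alone took 129627 of the 237097 member reads, 54.7%, and its share in a library ran from 13.3% in Day7 replicate 1 to 85.4% in Day7 replicate 3. Zero values were common among the low members: 9 of 31 were at 0 in 6h replicate 2 and in Day7 replicate 3, and none in Day1 replicates 2 and 3. The largest number of members, 8, had their highest deposited value in Day7 replicate 3, and on the scale of all reads the largest number, 9, were highest in Day1 replicate 4.

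**Figure D1:**
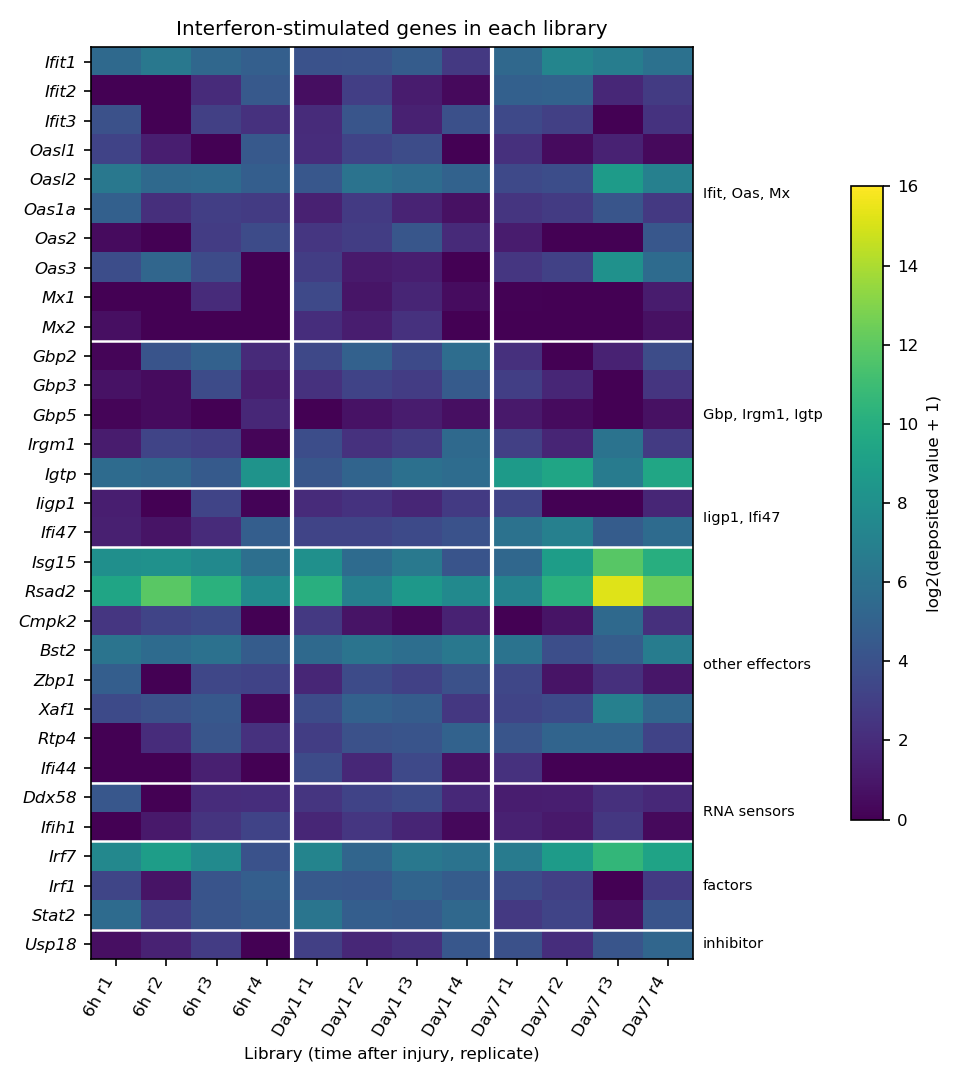
Level of each of the 31 members in each library, as log2(deposited value + 1) by colour, with libraries in columns by time after injury and genes in rows by role. Rsad2, Isg15, Irf7 and Igtp stand above the rest, and Rsad2 reaches its highest value in Day7 replicate 3.

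The number of members that changed was small. For Day1 versus 6h none of 29 passed limma's threshold, against 0.169% of all tested genes, while 3 members had an unadjusted p under 0.05, as had 11.2% of all tested genes. On the recovered reads edgeR called 0 members there, beside 0.0803% of all tested genes, with 1 at an unadjusted p under 0.05, beside 6.65%. DESeq2 called 0 as well, beside 1.76%, with 2 members at an unadjusted p under 0.05, beside 9.38%. From Day1 to Day7 limma called 2 of 29, Igtp and Ifit1, both higher, beside 5.78% of all tested genes (2.19% higher and 3.59% lower), and 12 members had an unadjusted p under 0.05, beside 29.1% of all tested genes. On the recovered reads edgeR called 0 of them, beside 0.00892% of all tested genes, with 8 at an unadjusted p under 0.05, beside 21.3%. DESeq2 called 6 members, Igtp, Ifit1, Isg15, Oas3 and Rsad2 higher and Stat2 lower, beside 15.8% of all tested genes. Between 6h and Day7 limma called 1 of 29, Ifi47, which was higher, beside 0.883% of all tested genes (0.607% higher). At an unadjusted p under 0.05 limma had 4 members there, beside 18% of all tested genes. In the same comparison edgeR called 0 members, beside 0.749%, with 3 at an unadjusted p under 0.05, beside 15.4%, and DESeq2 called Ifi47 alone, beside 9.59%. The F test for any difference among the 3 times called 0 of 29 members, beside 2.55% of all tested genes, with 10 at an unadjusted p under 0.05, beside 25.5%. Across the 3 times edgeR also called 0 members, beside 0.0892%, with 7 at an unadjusted p under 0.05, beside 18.4%, and DESeq2 called 1, Igtp, beside 7.81%. With 0 to 2 members called in a comparison by limma or edgeR and 0 to 6 by DESeq2, these counts do not set the list apart from all tested genes.

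The scale decided which members were called. On the scale of all reads, limma called 2 of 29 members in Day1 versus 6h, Ifi44 and Rtp4, both higher at Day1, beside 10.7% of all tested genes. In Day7 versus Day1 on that scale it called 9 members, all lower at Day7, in place of the 2 higher, and 35.3% of all tested genes were called lower. Those 9 were Bst2, Ddx58, Gbp2, Gbp3, Ifi44, Irf1, Mx1, Oas2 and Stat2. In Day7 versus 6h on that scale limma called no member and 0% of all tested genes, and 2 members had an unadjusted p under 0.05, beside 8.58% of all tested genes. No member that was called on either scale had the opposite sign on the other.

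The ranges of the 4 libraries seldom separated. From 6h to Day1, Ifit1 was the sole member whose deposited values did not overlap and were lower, beside 0.883% of all tested genes, and no member was higher, beside 5.52%. From Day1 to Day7, Ifit1, Igtp and Ifi47 were higher without overlap, 9.68% of the members beside 8.47% of all tested genes. In the same comparison Irf1 and Stat2 were lower without overlap, 6.45% of the members beside 14.5% of all tested genes. Between 6h and Day7 no member separated in either direction, beside 3.45% of all tested genes higher and 2.38% lower. In RPM other members separated. There Irgm1, Bst2, Ifi44 and Usp18 were higher at Day1 than at 6h without overlap, 12.9% of the members beside 18.7% of all tested genes, and none was lower, beside 0.134%. From Day1 to Day7 no member was higher without overlap in RPM, beside 0.437% of all tested genes, and Oas2, Mx1, Gbp2, Ddx58, Irf1 and Stat2 were lower, 19.4% of the members beside 30% of all tested genes. Between 6h and Day7 no member separated in RPM.

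**Figure D2:**
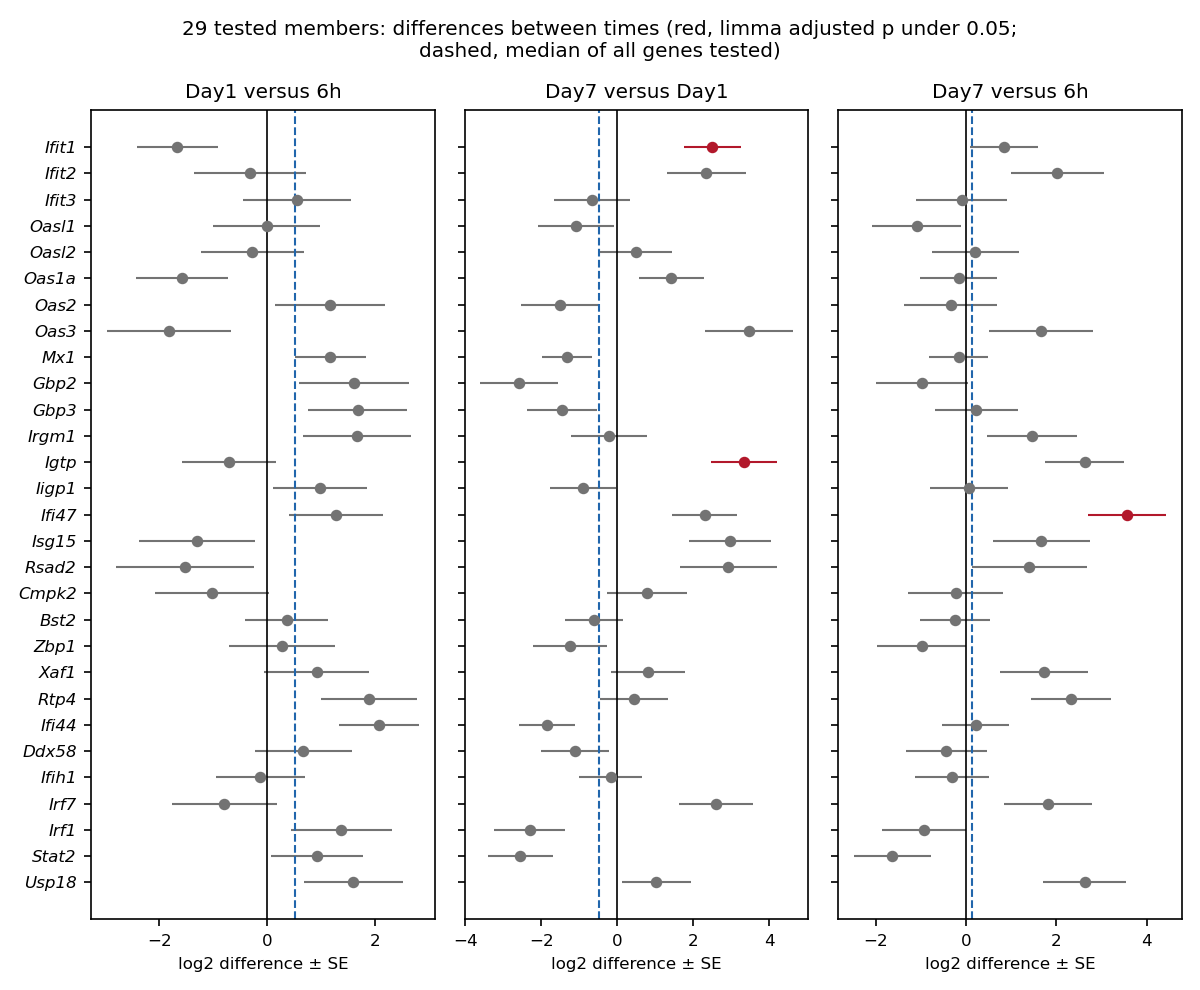
Log2 difference with its standard error (limma) for the 29 tested members in each comparison of times, in red where the adjusted p is under 0.05, with the median of all tested genes as a dashed line. Igtp and Ifit1 are red for Day7 versus Day1 and Ifi47 for Day7 versus 6h.

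The members are shown beside the DNA before their starts, because the 2 response elements named above separate the families in textbook accounts. The promoters shown run from 250 bases before to 50 bases after the gene start, from RefSeq on GRCm38.p6, which is another build than the mm9 of the study. They belong to the Ifit, Oas or Mx members and the Gbp or immunity-related GTPase members with the smallest F test p. ISRE was searched as GAAANNGAAA and GAS as TTCNNNGAA, on both strands. Matches are in capitals, ISRE in Ifit1 and Oas3, and in Igtp the GAS match followed by the ISRE match.
Ifit1 (chr19:34640639-34640938, plus strand): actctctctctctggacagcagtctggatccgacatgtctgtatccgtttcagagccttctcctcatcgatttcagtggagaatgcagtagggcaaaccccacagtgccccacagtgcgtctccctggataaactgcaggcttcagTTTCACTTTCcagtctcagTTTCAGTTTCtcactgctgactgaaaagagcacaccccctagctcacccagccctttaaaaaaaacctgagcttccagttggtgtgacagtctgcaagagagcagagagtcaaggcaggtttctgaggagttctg
Oas3 (chr5:120777610-120777909, minus strand): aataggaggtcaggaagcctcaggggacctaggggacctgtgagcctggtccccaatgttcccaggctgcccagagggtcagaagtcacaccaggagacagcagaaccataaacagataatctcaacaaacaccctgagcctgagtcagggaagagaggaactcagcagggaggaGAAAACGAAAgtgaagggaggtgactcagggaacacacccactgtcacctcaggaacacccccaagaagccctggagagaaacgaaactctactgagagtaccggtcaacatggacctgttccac
Igtp (chr11:58199306-58199605, plus strand): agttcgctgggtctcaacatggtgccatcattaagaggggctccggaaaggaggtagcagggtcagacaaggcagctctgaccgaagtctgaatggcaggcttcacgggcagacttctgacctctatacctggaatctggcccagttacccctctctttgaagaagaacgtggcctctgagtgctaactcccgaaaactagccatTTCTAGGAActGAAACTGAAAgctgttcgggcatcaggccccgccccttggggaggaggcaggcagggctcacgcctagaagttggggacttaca
Ifi47 (chr11:49076337-49076636, plus strand): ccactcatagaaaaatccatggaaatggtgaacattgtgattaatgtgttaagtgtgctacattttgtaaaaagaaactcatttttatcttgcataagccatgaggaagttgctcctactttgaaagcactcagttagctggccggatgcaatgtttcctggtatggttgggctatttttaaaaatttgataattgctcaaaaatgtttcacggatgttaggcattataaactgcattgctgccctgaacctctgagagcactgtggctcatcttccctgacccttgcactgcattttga

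Ifit1 held 2 ISRE matches, which began 104 and 85 bases before the start, and Oas3 held 1, at 75 bases. Igtp held a GAS match 45 bases and an ISRE match 34 bases before its start, and these did not overlap. The Ifi47 window held neither set of letters. Of the 31 members 24 had a promoter in the reference table. ISRE letters were present in 15 of those 24 and in 3.44% of all 32851 promoters of this length, and GAS letters in 6 of 24 and in 8.30%. A member was counted if any of its promoters held the letters, whereas the percentages are of single promoters, so the 2 are not strictly alike. By family, ISRE letters were found in 4 of 7 Ifit, Oas and Mx promoters and in 5 of 6 promoters of the Gbp and GTPase members, and GAS letters in 2 of 7 and 2 of 6. The ISRE letters thus occurred in both families, and a match describes the letters alone.

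Igtp encodes an immunity-related GTPase, and on the deposited scale it rose from Day1 to Day7. Its deposited values at 6h were 47.4, 40.1, 22.5 and 302 in replicates 1 to 4, at Day1 18.5, 34.5, 58.0 and 48.6, and at Day7 424, 672, 98.7 and 719. All 4 Day7 libraries were above all 4 Day1 libraries, and 1 of the 6h libraries, replicate 4, lay within the Day7 range. The Day1 mean was 39.9 ± 17.2 (SD, n = 4) and the Day7 mean 478 ± 284 (SD, n = 4), a log2 difference of 3.33 ± 0.87 (SE) with a limma adjusted p of 0.0332. On the scale of all reads the difference was 1.19 with a limma adjusted p of 0.399, against a median of −1.78 for all tested genes, which put Igtp 2.97 above that median. Without any 1 of the Day1 libraries, or without Day7 replicate 2 or 4, limma's adjusted p for Igtp rose to between 0.0646 and 0.0893. When Y-linked reads entered the fit as a covariate, the difference was 4.13 and limma's adjusted p 0.127. In that fit 0 of the 11211 tested genes were called for Day7 versus Day1. Since no Day7 library held Y-linked reads, that covariate and time cannot be fully told apart.

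Ifi47, another immunity-related GTPase, rose from 6h to Day7. Its deposited values were 1.68, 0.757, 2.90 and 26.9 at 6h, 8.53, 8.54, 10.8 and 15.3 at Day1, and 65.4, 124, 24.1 and 47.9 at Day7. The Day7 libraries were all above the Day1 libraries, and 6h replicate 4 was again the high one of its group and lay above Day7 replicate 3. The difference from 6h to Day7 was 3.57 ± 0.86 (SE), with a limma adjusted p of 0.0449, and from Day1 to Day7 it was 2.30 ± 0.86, with a limma adjusted p of 0.0892. The call depended on single libraries: limma's adjusted p was 0.00211 without 6h replicate 4 and 0.0415 without Day7 replicate 3, and between 0.0585 and 0.162 without any 1 of the others. Scaled to all reads, the difference from 6h was 2.64, with a limma adjusted p of 0.554.

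Both GTPases moved with the platelet content of the libraries. The summed deposited value of the 11 platelet markers was between 195 and 25126 at 6h, between 902 and 5840 at Day1, and between 23244 and 38517 at Day7. Of those 11 markers, 8 were called higher by limma from Day1 to Day7 and 5 from 6h to Day7, and Pf4 and Ppbp had reads in all 12 libraries. In 6h replicate 4, where Igtp and Ifi47 were high, the platelet markers took 419169 reads, against 808 to 12118 in the other 6h libraries. Platelets were not alone in this. That library also held 33507 reads of monocyte markers, against 233 to 6472, and the most leukocyte, endothelial and B cell marker reads of its time. The summed monocyte markers were between 207 and 601 at Day1 and between 1626 and 3352 at Day7. Neutrophil, leukocyte and endothelial sums were also higher at Day7 than at Day1 without overlap. On the scale of all reads, over 12 libraries, Pearson's r with the mean platelet marker level was 0.868 for Igtp and 0.861 for Ifi47 (permutation p 0.00025 and 0.00029, each 0.0214 after adjustment over 377 relations of a member with a marker list). Spearman's rho was 0.818 for both (adjusted permutation p 0.0358). Of the 12 libraries, 6h replicates 2 and 3, stood apart with few platelet reads, and without these 2 r was 0.851 for Igtp and 0.760 for Ifi47. Of all tested genes 2.87% had an r with platelet markers as high as that of Igtp, and 3.07% as high as that of Ifi47. Libraries share their composition, and with 4 libraries a time no relation was computed within a time. Libraries of all times were permuted together, so a shift shared by a time counts as a relation in every permutation p given here. Each such p sets r against 0 and not against other genes. The part of platelets in the rise of Igtp and Ifi47 was not tested.

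None of the other Gbp and GTPase members passed a test in limma's main fit on the deposited scale. Gbp2 was called for Day7 versus Day1 with library weights and with only the 2 groups compared. Gbp2, which binds membranes of intracellular pathogens, was 0.187, 17.0, 30.9 and 2.7 at 6h, 10.3, 30.2, 11 and 51.1 at Day1, and 3.58, 0, 1.85 and 12 at Day7. The difference from Day1 to Day7 was −2.59 ± 1.02 (SE), with a limma adjusted p of 0.101 on the deposited scale and, at −4.17, 0.00721 on the scale of all reads. Gbp3 lay between 0 and 23.2 and Iigp1 between 0 and 8.93, and both had their highest group mean at Day1. Irgm1, a regulator of the other GTPases, lay between 0.180 and 66.0. Its highest deposited value was in Day7 replicate 3, which held 11.8 RPM, and its highest RPM was 115, in Day1 replicate 4. Gbp5 was at 2.40 or less in every library, with 119 reads in all. Reads of near copies within the Gbp, Oas and GTPase families may be split between genes, so single members of these families are uncertain.

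Ifit1, which binds viral RNA that lacks the cell's own cap mark, was lowest at Day1. Its deposited values were 43.9, 85.6, 39.6 and 27.2 at 6h, 15.2, 15.9, 24.7 and 5.33 at Day1, and 41.3, 158, 107 and 62.5 at Day7. The Day1 libraries were below every library of the other times, whereas 6h and Day7 overlapped. The Day1 mean was 15.3 ± 7.93 (SD, n = 4) and the Day7 mean 92.0 ± 51.5 (SD, n = 4), a difference of 2.50 ± 0.76 (SE) with a limma adjusted p of 0.0499. From 6h to Day1 the difference was −1.66 ± 0.76 (SE), with a limma adjusted p of 0.431. Ifit1 in RPM was 38.6, 44.3, 30.5 and 36.7 RPM at 6h, 23.4, 45, 44 and 14.2 at Day1, and 57.2, 95.5, 19.0 and 20.7 at Day7, where the times overlapped. There the Day7 versus Day1 difference was 0.42, with a limma adjusted p of 0.716, 2.20 above the median of all tested genes. Leaving out any 1 of the Day1 libraries, or Day7 replicate 2, 3 or 4, ended the call on the deposited scale, with limma's adjusted p between 0.0778 and 0.144.

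The Oas genes, which make the short adenylate chains that switch on RNase L, passed no test in limma's main fit on the deposited scale. For Day7 versus Day1, Oas3 was called with library weights, with only the 2 groups compared and by DESeq2. It was also called without 6h replicate 4 or without Day7 replicate 1. Oas3 was 12.9, 38.2, 11.3 and 0 at 6h, 6.55, 1.22, 1.59 and 0 at Day1, and 4.82, 7.46, 276 and 46.9 at Day7. Its log2 difference from Day1 to Day7, 3.47 ± 1.15 (SE), was the largest of the members in that comparison, with a limma adjusted p of 0.0639. Oasl2, an Oas-like protein, was 84.4, 42.8, 46.8 and 26.3 at 6h, 19.4, 65.9, 50.1 and 31.5 at Day1, and 10.3, 12.8, 447 and 122 at Day7. On the deposited scale the Day7 group held both the lowest and the highest Oasl2 libraries, whereas in RPM the highest was Day1 replicate 2, at 187, with Day7 replicate 3 at 79.7. limma's adjusted p for Day7 versus Day1 was 0.762. Oas1a lay between 0.662 and 28.9, Oas2 between 0 and 19.0 and Oasl1 between 0 and 20.8. Ifit2 and Ifit3, partners of Ifit1, lay between 0 and 31.6 and between 0 and 17.3. The myxovirus resistance GTPases were scarce: Mx1 had 171 reads in all, 154 of them at Day1, and Mx2 had 125, of which 120 were at Day1.

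**Figure D3:**
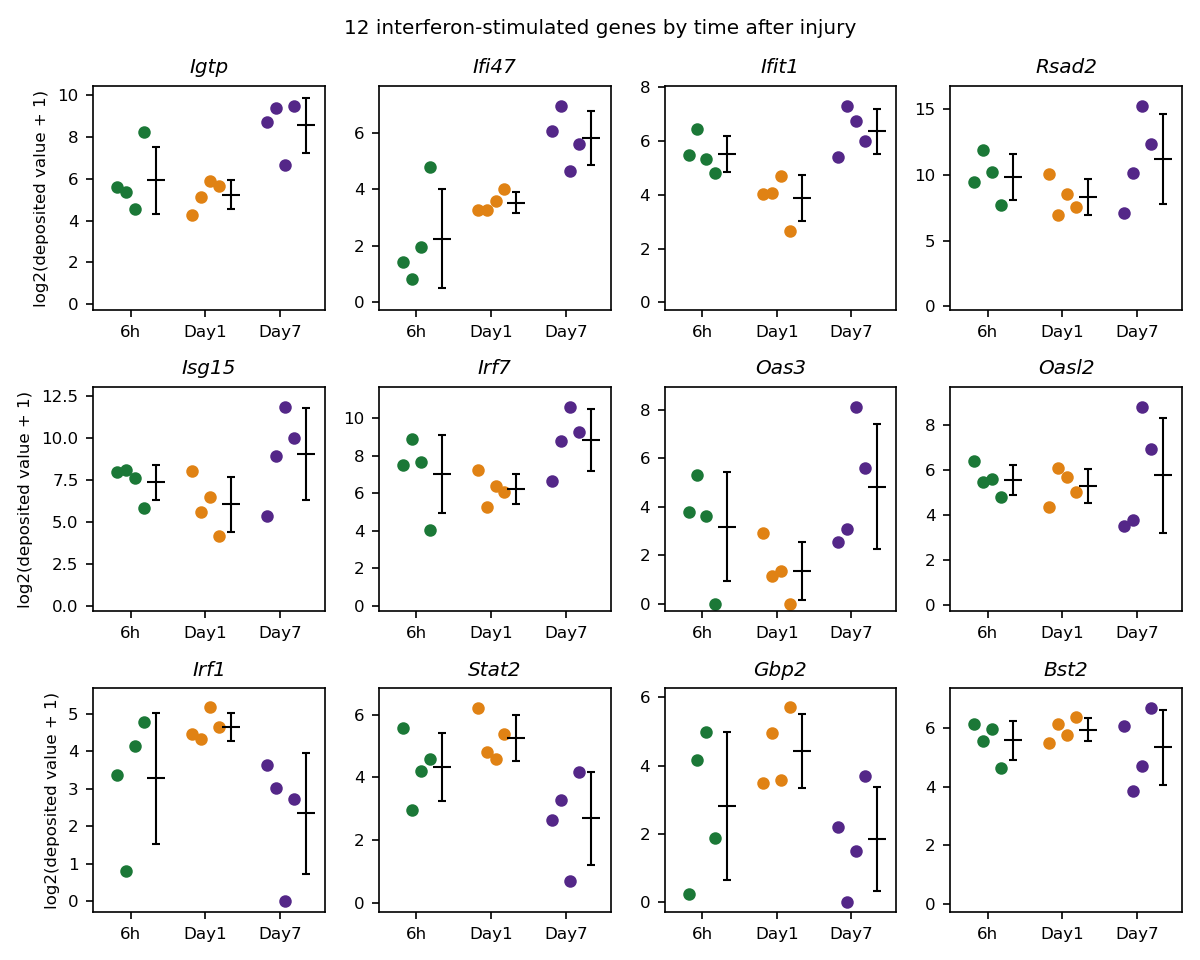
log2(deposited value + 1) of 12 members in each library (points) by time after injury, with the mean and SD of each time in black. Every Day7 library of Igtp, Ifi47 and Ifit1 lies above every Day1 library, every Day7 library of Irf1 and Stat2 below, and the other 7 genes overlap.

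The 2 families can be set side by side as medians over all their members, with no test. For Day1 versus 6h the median log2 difference was −0.14 for the 10 Ifit, Oas and Mx genes and 1.61 for Gbp2, Gbp3, Gbp5, Irgm1 and Igtp, beside 0.52 for all tested genes and 0.56 for all 31 members. For Day7 versus Day1 the medians were −0.09 and −0.21, beside −0.48 for all tested genes and −0.18 for the 31 members. For Day7 versus 6h they were −0.04 and 0.23, beside 0.13 for all tested genes and 0.06 for the members. Scaled to all reads, the medians for Day1 versus 6h were 0.89 and 2.77, so the Gbp set kept the higher one. Single libraries moved these medians: for Day1 versus 6h the Ifit, Oas and Mx median was 0.59 without 6h replicate 4, and the Gbp, Irgm1 and Igtp median was 0.75 without 6h replicate 1. Of the 31 members, 19 had a difference above 0 for Day1 versus 6h, beside 71.6% of all tested genes, 14 for Day7 versus Day1, beside 38.2%, and 17 for Day7 versus 6h, beside 53.8%. In RPM these counts were 26, 8 and 15, beside 92.8%, 12.9% and 43% of all tested genes.

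Within libraries the order of the families varied. The mean log2(value + 1) of the Ifit, Oas and Mx genes less that of the Gbp, Irgm1 and Igtp genes was 1.27, −0.68, −0.50 and 0.03 at 6h, −0.22, −0.34, −0.48 and −2.90 at Day1, and −1.002, −0.10, 0.28 and −0.55 at Day7. All 4 Day1 libraries were below 0, and the lowest was Day1 replicate 4, where the Gbp set was at its highest, 4.41, and the Ifit, Oas and Mx genes at their lowest, 1.51. The 6h range, from −0.68 to 1.27, overlapped the ranges of the other times. Igtp carried much of the Gbp set in some libraries. Without it the mean of the set was 0.96 in place of 2.64 in Day7 replicate 2, 1.30 in place of 2.69 in 6h replicate 4, and 4.11 in place of 4.41 in Day1 replicate 4.

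**Figure D4:**
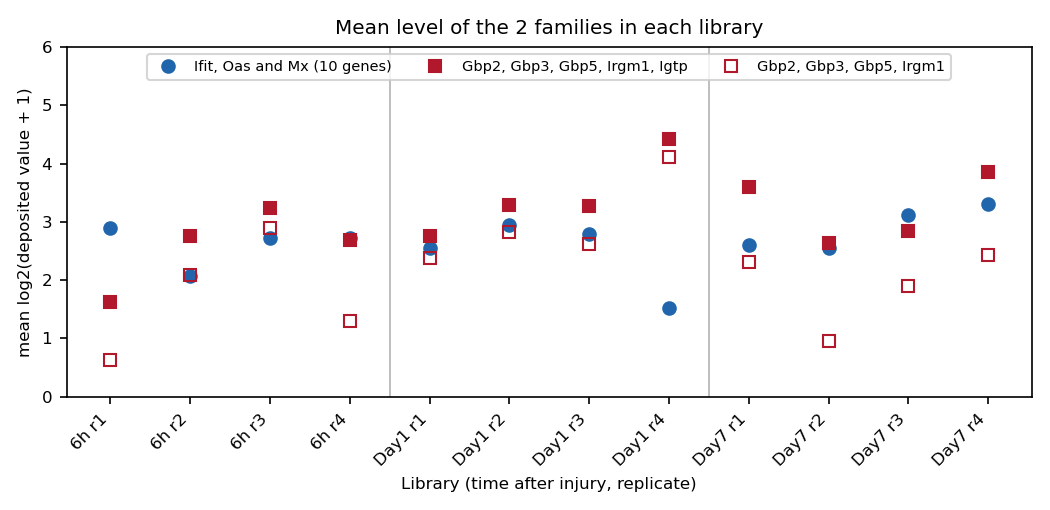
Mean log2(deposited value + 1) of the Ifit, Oas and Mx genes (circles) and of the Gbp, Irgm1 and Igtp genes (filled squares; open squares without Igtp) in each library. The families lie furthest apart in Day1 replicate 4, at 1.51 and 4.41.

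Among the other effectors, Rsad2 and Isg15 were the most abundant. Rsad2 was 688, 3808, 1185 and 204 at 6h, 1086, 119.9, 376 and 191 at Day1, and 138, 1144, 38087 and 5111 at Day7. The Day7 libraries of Rsad2 included both the second lowest and the highest value of all, and limma's adjusted p for Day7 versus Day1 was 0.133. Isg15 was 251, 267, 192 and 55.6 at 6h, 262, 46.9, 87.5 and 16.9 at Day1, and 40.2, 481, 3656 and 1035 at Day7. The same libraries were high and low as for Rsad2 at Day7, and limma's adjusted p for Day7 versus Day1 was 0.0819. In that comparison DESeq2 called both Rsad2 and Isg15 (1776 of all tested genes called), as did limma without Day7 replicate 1 (1002 called). With library weights limma called Isg15 (2779 called). In RPM, which do not use the authors' scale, Rsad2 still ran from 191 in Day7 replicate 1 to 6788 in Day7 replicate 3.

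These genes moved with erythroid markers. The summed deposited value of the 10 erythroid markers was between 6206 and 112785 at 6h, between 901 and 8305 at Day1, and between 2449 and 199754 at Day7, highest in Day7 replicate 3. limma called 2 of the 10 higher from Day1 to Day7, and Alas2 and Slc4a1 had reads in all 12 libraries. On the scale of all reads, over 12 libraries, Pearson's r with the mean erythroid marker level was 0.813 for Isg15 (permutation p 0.00159, adjusted 0.0353; rho 0.811, adjusted p 0.0358) and 0.777 for Rsad2 (permutation p 0.00238, adjusted 0.0374; rho 0.755, adjusted p 0.0592). Without Day7 replicates 3 and 4 the r was 0.688 and 0.605. On the deposited scale, whose size factor both sides share, r over 12 libraries was 0.947 and 0.936. The median r of all tested genes with erythroid markers was −0.468, and 0.143% of them had an r as high as Isg15 and 0.303% as high as Rsad2. The part of red cell precursors or reticulocytes in these levels was not tested.

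Bst2 showed no call on the deposited scale, at 69.5, 46.6, 61.8 and 23.8 at 6h, 43.6, 69.2, 53.6 and 82.7 at Day1, and 66.5, 13.4, 25.3 and 103 at Day7. Its limma adjusted p was between 0.620 and 0.893 in the 3 comparisons on the deposited scale, and on the scale of all reads it was lower at Day7 than at Day1 by a log2 difference of −2.69 (limma adjusted p 0.0319). Cmpk2, a mitochondrial nucleotide kinase that is the gene neighbour of Rsad2, had 298 reads in all and its highest deposited value, 42.6, in Day7 replicate 3, whereas in RPM its highest value was 8.37, in 6h replicate 3, beside 7.59 in Day7 replicate 3. Ifi44 was at 0 in 3 of 4 libraries at 6h and in 3 of 4 at Day7, and was 11.5, 2.39, 10.5 and 0.740 at Day1. Scaled to all reads, Ifi44 was higher at Day1 than at 6h by 2.96 (limma adjusted p 0.0323). Rtp4, a chaperone of membrane receptors, was higher by 3.09 (limma adjusted p 0.0490) on that scale, from 1.88 (limma adjusted p 0.441) on the deposited one. Zbp1, a sensor of left-handed nucleic acids, lay between 0 and 26.3 and Xaf1, which promotes cell death, between 0.240 and 126.

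The cytosolic RNA sensors were low. Ddx58 (RIG-I) was 19.4, 0, 3.14 and 3.24 at 6h, 4.57, 8.35, 11.1 and 2.61 at Day1, and 1.44, 1.53, 3.70 and 2.66 at Day7. Its Day7 values lay in a narrow range that overlapped both other times, with a limma adjusted p of 0.421 against Day1. Ifih1 (MDA5), which senses long double-stranded RNA, lay between 0 and 8.45, and its log2 differences were −0.13, −0.18 and −0.31 for Day1 versus 6h, Day7 versus Day1 and Day7 versus 6h.

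The transcription factor Irf7 was 179.8, 475, 203 and 15.6 at 6h, 149, 37.0, 82.7 and 65.9 at Day1, and 98.4, 444, 1571 and 618 at Day7. Its highest value was in the Day7 library in which Rsad2 and Isg15 were highest, and its Day7 versus Day1 difference of 2.6 ± 0.97 (SE) had a limma adjusted p of 0.0885. Irf7 was called in that comparison with library weights, with only the 2 groups compared, and without 6h replicate 4 or Day7 replicate 1. Irf1, the factor that follows interferon gamma, was 9.34, 0.757, 16.7 and 26.7 at 6h, 20.9, 19.2, 35.0 and 24.2 at Day1, and 11.4, 7.08, 0 and 5.65 at Day7. Stat2, a transcription factor of type I signalling, was 46.5, 6.82, 17.6 and 23.0 at 6h, 74.0, 27.1, 22.9 and 41.0 at Day1, and 5.30, 8.80, 0.617 and 17.0 at Day7. Every Day7 library of Irf1 and of Stat2 was below every Day1 library. The differences were −2.31 ± 0.93 and −2.55 ± 0.85 (SE), with limma adjusted p of 0.107 and 0.0641, and on the scale of all reads −3.71 and −4.17, with limma adjusted p of 0.0113 and 0.00524. Both were also called when scaled to reads outside haemoglobin. DESeq2 called Stat2 too, as did limma with library weights, with only the 2 groups compared, with median-of-ratios scaling or without 6h replicate 1.

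Irf1 and Stat2 moved with markers of other cells. The summed deposited value of the 7 mesothelial markers was between 9.85 and 2008 at 6h, between 422 and 2362 at Day1, and between 1.23 and 189.9 at Day7, and limma called 5 of the 7 lower from Day1 to Day7. Msln had reads in all 12 libraries. In Day7 replicate 3 Irf1 was at 0, as were 5 of the 7 mesothelial markers, 8 of the 10 T cell markers and 8 of the 9 NK cell markers. That library had reads of 7635 genes, so zeros there are not particular to mesothelial markers. On the scale of all reads, Pearson's r with the mesothelial level over 12 libraries was 0.940 for Irf1 (permutation p 4e-05, adjusted 0.00754) and 0.879 for Stat2 (permutation p 0.00034, adjusted 0.0214). Without 6h replicate 2 and Day7 replicate 3 these r were 0.887 and 0.795. Of all tested genes 0.91% had an r as high as Irf1 and 4.75% as high as Stat2, and the median r of all tested genes was 0.564. The permutation p-values, which set r against 0, do not measure the distance from that median. Stat2 also had an r of 0.831 and Ddx58 one of 0.856 with the 6 markers of plasmacytoid dendritic cells, the main makers of interferon alpha (adjusted permutation p 0.0329 and 0.0314). The median r of all tested genes with those markers was 0.409, and 2.75% of them had an r as high as Stat2 and 1.78% as high as Ddx58. The summed value of those 6 markers was between 5.68 and 238 at 6h, between 46.0 and 353 at Day1, and between 13 and 60.6 at Day7, and Ccr9 and Klk1 were each at 0 in 6 of the 12 libraries, Cox6a2 in 2, and Siglech, Tcf4 and Pacsin1 in 1. Gbp3 followed the 11 mesenchymal markers with an r of 0.894 (adjusted permutation p 0.0176), where the median of all tested genes was 0.608. Recomputed on the deposited scale, these r were lower. They were 0.905 for Irf1 and 0.762 for Stat2 with mesothelial markers, and 0.807 for Gbp3 with mesenchymal markers. With plasmacytoid dendritic cell markers they were 0.684 for Stat2 and 0.714 for Ddx58. The part of these cells in the levels was not tested. Of the 377 relations 45 had an adjusted permutation p under 0.05 by Pearson's r, and 27 of those also by Spearman's rho.

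**Figure D5:**
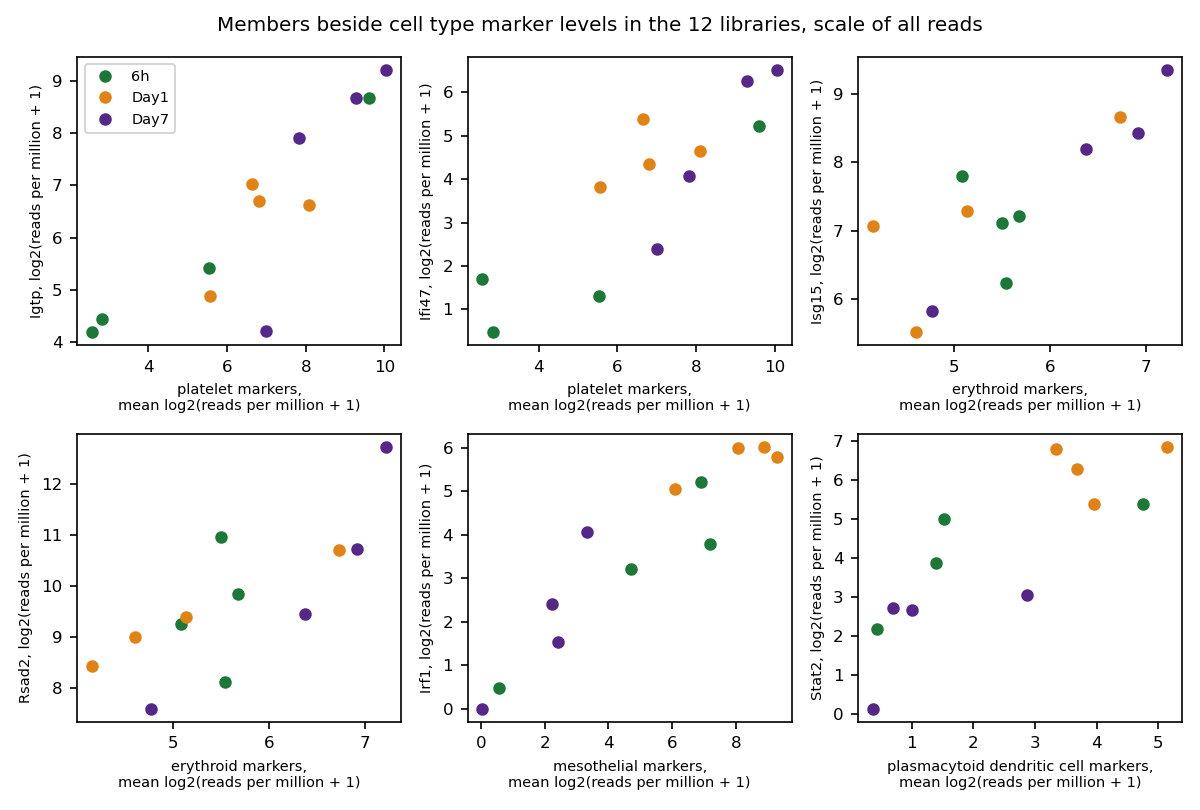
Levels of 6 members against the mean level of a cell type marker list in the 12 libraries, both as log2(RPM + 1), coloured by time after injury. Igtp and Ifi47 are shown beside platelet markers (r 0.868 and 0.861), Isg15 and Rsad2 beside erythroid markers (r 0.813 and 0.777), Irf1 beside mesothelial markers (r 0.940) and Stat2 beside plasmacytoid dendritic cell markers (r 0.831). The r of Stat2 with mesothelial markers, not drawn, was 0.879.

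Usp18, which removes Isg15 from proteins and blocks the type I receptor, was 0.560, 1.89, 6.28 and 0 at 6h, 7.29, 2.51, 3.56 and 19.7 at Day1, and 14.5, 3.25, 17.3 and 38.6 at Day7. The times overlapped, and the largest difference, 2.63 ± 0.92 (SE) for Day7 versus 6h, had a limma adjusted p of 0.133.

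The rest of the pathway was read from a list of 114 genes that are not members, of which 108 rows were in the table and 76 were tested. The ligands were almost absent: none of 17 rows passed the filter, Ifnb1 and all alpha interferons had 0 reads, and Ifng, the gamma ligand, had 52 reads over 12 libraries. The receptor chains and factors were measured. F tests by limma gave adjusted p of 0.472 for Ifnar1, 0.312 for Ifngr1, 0.585 for Irf9 and 0.127 for the feedback inhibitor Socs1. Ifnar1 had a mean of 8.71 at 6h, 11.4 at Day1 and 5.15 at Day7, and Ifngr1 11.2, 26.1 and 7.87. The mean of Irf9 was 8.50 at 6h, 16.9 at Day1 and 13.8 at Day7, and that of Socs1 2.99, 14.7 and 1.23.

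Of the 76 tested pathway genes limma called 0 in Day1 versus 6h, beside 0.169% of all tested genes. In Day7 versus 6h it called 0 as well, beside 0.883%. In Day7 versus Day1 it called 2 lower, beside 3.59%, and 0 higher, beside 2.19%. At an unadjusted p under 0.05 limma had 14 of the 76 in Day1 versus 6h, beside 11.2% of all tested genes. It had 23 in Day7 versus Day1, beside 29.1%, and 13 in Day7 versus 6h, beside 18%. On the recovered reads edgeR called 0 of the 76 in Day1 versus 6h, beside 0.0803% of all tested genes, and 0 in Day7 versus 6h, beside 0.749%. DESeq2 called 1 higher in Day1 versus 6h, beside 1.76% called in all, and 4 lower in Day7 versus 6h, beside 9.59%. In Day7 versus Day1 edgeR called 0 of the 76 and DESeq2 called 1 higher and 10 lower, beside the 15.8% of all tested genes given above. One of the 2 genes called by limma was Gbp4, a guanylate-binding protein of the gamma response, at 0, 0, 0.241 and 0 at 6h, 7.04, 1.41, 7.2 and 12.6 at Day1, and 0.0688, 0, 0 and 0.998 at Day7. Its difference from Day1 to Day7 was −2.50 ± 0.62 (SE), with a limma adjusted p of 0.0296, and every Day1 library was above every library of the other times. Gbp4 reached a value of 1 in the Day1 libraries alone, so it passed the filter only through the group where it was high. Its separation and its call are therefore partly set by the filter, and with no filter limma's adjusted p was 0.0783. The other was Ifi204, a DNA sensor of myeloid cells, at 1.49, 1.14, 7.24 and 11.4 at 6h, 6.67, 9.01, 19.1 and 5.29 at Day1, and 0.138, 1.15, 0 and 0.333 at Day7. Its 6h libraries overlapped those of Day1. From Day1 to Day7 Ifi204 fell by 2.89 on the log2 scale, with a limma adjusted p of 0.0437. Ifi204 fell from Day1 to Day7 while Igtp and Ifit1 rose, on the same deposited scale and in the same libraries. Scaled to all reads, limma called 13 of the 76 higher for Day1 versus 6h, beside 10.7% of all tested genes, and 39 lower for Day7 versus Day1, beside 35.3%. The Gbp4 call ended without Day7 replicate 2 or 3 (limma adjusted p 0.0812 and 0.0721), and without any 1 of the Day1 libraries the gene did not pass the filter. The Ifi204 call ended without any 1 library of Day1 or Day7 (limma adjusted p 0.0567 to 0.113). Neither gene was called by edgeR (adjusted p 0.142 for Gbp4 and 0.115 for Ifi204), beside 0.00892% of all tested genes. Both calls ended when Y-linked reads entered the limma fit as a covariate (adjusted p 0.155 and 0.360). So did every other call in that comparison, with 0 of 11211 tested genes left.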

How the data were processed

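Total RNA of iChip-enriched mouse blood was sequenced in 12 libraries, 4 at each of 3 times after burn/tenotomy, grouped and numbered by their titles. Per the submitters' processing notes STAR 2.7.10, HTSeq 2.0.1 and the build mm9 were used. For the annotation, the strand setting and the scaling step nothing is stated in those notes. Each gene in the table has 1 deposited signal per library, which the authors named CPM. Its columns do not sum to a common total, and 100% of values were whole multiples of 1 read within 0.001 reads, so reads were recovered from them. The gene lengths used for values per kilobase are those deposited by the authors.

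Differences were fitted with limma 3.58.1 in R 4.3.3 (trended variance, log2(value + 1), all 12 libraries, time as the sole factor). Scripts were tested on simulated data. Count tests on the recovered reads used edgeR 4.0.16 (quasi-likelihood) and DESeq2 1.42.0. Other alternatives changed the pseudocount (0.25 or 4), the filter (none, or a mean of 10 or more), the scaling, the library weights or the groups fitted, added a replicate block or a covariate for Y-linked reads, or left out libraries. Relations to 13 marker lists used 100000 permutations of the 12 libraries and were added after the data were seen, as was their recomputation on the deposited scale.

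The members, gene lists and marker lists were chosen with earlier results of these data known. By rule, values in every library are given for members called by limma on the deposited scale in any comparison or in the F test, for the 3 members with the smallest F test p and for the most abundant member of each role. The pathway genes named are those called and Ifnb1, Ifng, Ifnar1, Ifngr1, Irf9 and Socs1, and 1 further gene of that rule is not reported here. The rule on promoters takes 2 members of each family. The library values of Oas3, Gbp2, Isg15, Bst2, Ifi44, Irf1, Stat2, Gbp4 and Ifi204, and the marker relations printed, were chosen after their values were seen.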

Additional observations from a re-analysis of the deposited data

Results flagged for a closer look

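In 7 of 93 groups of 4 libraries, 7.53%, 1 library of a member stood apart from the other 3 by Dixon's test at its 95% critical value. That value flags about 1 in 20 groups of normally distributed values by chance. Where the other 3 libraries are all at 0, any value above 0 is flagged, so the 7.53% cannot be set against that rate. Oas1a was 17.9 in Day7 replicate 3 and 4.61 to 5.74 in the other Day7 libraries. Mx1 was 2.90 in 6h replicate 3 and 0 in the other 6h libraries, and 1.33 in Day7 replicate 4 beside 0 to 0.0688 at that time. Mx2 was 0.560 in 6h replicate 1 and 0.665 in Day7 replicate 4, with the other 3 libraries of each time at 0. Ifi44 was 1.69 in 6h replicate 3 and 3.92 in Day7 replicate 1, again with the others at 0. In RPM Oas1a was 3.19 in Day7 replicate 3, inside the range of the other Day7 libraries, 1.76 to 6.38. These values rest on few reads: Oas1a had 29 in Day7 replicate 3, and Mx1 had 171, Mx2 125 and Ifi44 390 reads in all 12 libraries.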

How the results depend on the processing

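For Day1 versus 6h, 0 members were called under each alternative except the scaling to all reads, with 2. Over all tested genes 1207 were called on that scale and 0 to 252 under the other alternatives. The numbers in brackets below are the calls over all tested genes, 11211 unless stated or libraries were left out. For Day7 versus Day1, 2 members were called in the main fit (648). The count became 9, all lower, when scaled to all reads (3963) or to reads outside haemoglobin (3553). It was 10 with array weights (2779), 7 with only the 2 groups compared (1901) and 6 with DESeq2 (1776). The count was 1 with a pseudocount of 0.25 (457), with TMM scaling (489) and without the 2 libraries with the fewest genes (416). It was 0 with no filter (57 of 20052), the term for Y-linked reads (0) or edgeR (1). Leaving out 1 library in turn gave 0 to 7 (3 to 1185). For Day7 versus 6h, the 1 member (99) became 2 with array weights (811). It became 0 with either other pseudocount, no filter, the 4 other scalings or only 2 groups. The count was also 0 without the 2 libraries with the fewest genes or with edgeR (0 to 97 under all of these). With 1 library left out it was 0 to 2 (3 to 695). For the F test, 0 members (286) became 2 with a mean of at least 10 (266 of 4383) and 5 with array weights (2116). The count was 4 scaled to reads outside haemoglobin (2487) and 6 scaled to all reads (2960). It was 1 without the 2 libraries with the fewest genes (185) or with DESeq2 (876). With 1 library left out it was 0 to 2 (61 to 977). Fewer genes or libraries entered some of these fits, and otherwise the cause was not tested.

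The median difference of the 31 members for Day1 versus 6h moved to 0.95 with a pseudocount of 0.25, 1.39 scaled to reads outside haemoglobin, 1.66 scaled to all reads, and 0.0019 to 0.75 with 1 library left out (lowest without 6h replicate 2). For Day7 versus Day1 it was −1.56 and −1.66 under these scalings. The Ifit, Oas and Mx median was 0.63 and 0.89 for Day1 versus 6h, −1.73 and −1.77 for Day7 versus Day1, and for Day7 versus 6h −0.55 scaled to reads outside haemoglobin. With 1 library left out, its Day1 versus 6h median ran from −0.44 to 0.59. With every other member outside the gamma-driven ones added, the Day7 versus Day1 median was 0.44. The Gbp, Irgm1 and Igtp median was 2.74 and 2.77 for Day1 versus 6h and −2.01 and −2.13 for Day7 versus Day1 under the same scalings. Leaving out 1 library gave 0.75 to 2.01 for Day1 versus 6h and −0.15 to 0.93 for Day7 versus 6h, and without the 2 libraries with the fewest genes the former was 0.75.

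Libraries with the same replicate number did not deviate together (r −0.23 to 0.12, over 0.1 in 1 of 12 pairs). For pairs with different numbers r was −0.22 to 0.26, over 0.1 in 8 of 36. In libraries of such unlike composition this cannot exclude that libraries with the same number share an animal or a preparation, which the labels do not state. With the number as a replicate block, limma called 1 member for Day7 versus Day1, Igtp, and Ifit1 had an adjusted p of 0.0604. Depth limits the low members most.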
